A study of Mus musculus with 2 samples.

Results

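The small heat shock proteins are a family of chaperones built around the alpha-crystallin domain, and the 7 members described here are Hspb1, Hspb2, Hspb3, Hspb6, Hspb7, Hspb8 and Cryab. They were chosen by family name from a table of 34745 mouse genes, with their read counts and FPKM in both libraries already in view. Those levels and their ratios are therefore a description and carry no test. The calf muscle gastrocnemius was taken from C57BL/6 mice of 8 weeks, and its total RNA gave 1 library of genotype Cry2flox/flox (called Cry2flox) and 1 of genotype Cry2scko. Cry2 encodes the clock repressor cryptochrome 2, and in a floxed allele the sites around part of the gene let a recombinase cut that part out. The meaning of scko, the promoter that drives the recombinase and the number of animals in a library are not given in the labels.

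Small heat shock proteins hold unfolding proteins in a state from which other chaperones can refold them, without using ATP themselves. In muscle they sit on the filaments and Z-discs that carry force, they assemble with each other into mixed oligomers, and some hand damaged filament proteins to autophagy. Several are known to be more abundant in slow, oxidative fibres than in fast ones, Cryab and Hspb6 among them. Inherited variants of several members cause myopathies or neuropathies.

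Each genotype has 1 library and no replicate, and every comparison describes this pair of libraries. Intervals are exact 95% counting intervals and, like the limits for 0 reads, cover counting error only, not variation between animals. They treat each read as a separate molecule. Reads copied by PCR and not marked by molecular identifiers are not separate molecules, so the intervals can be too narrow. The libraries held 18909433 reads (Cry2flox) and 16423884 reads (Cry2scko) counted on genes, and 23.8% and 24.6% of these counted reads fell on mitochondrially encoded genes. The targeted gene itself, Cry2, had 676 reads in the Cry2flox library against 133 in the Cry2scko library. Its log2 ratio was -2.16 (-2.44 to -1.89), over a count that pools all exons. Skeletal muscle markers were abundant in both libraries, with 5 of 5 measured and none past the 2-fold rule given below. In bulk RNA, fewer cells of a type and less RNA per cell cannot be told apart.

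Hspb6 was lower in the Cry2scko library, Cryab and Hspb7 were higher by less than 1.5-fold, and Hspb1, Hspb2, Hspb3 and Hspb8 had log2 ratios between -0.07 and 0.14. The 2-fold rule asked for a ratio of Cry2scko over Cry2flox of at least 2-fold in either direction and a counting interval that excluded 1. It was applied at a mean CPM (counts scaled to library size) of at least 1. All 7 members passed that filter, and 1 of them, Hspb6, was called lower and 0 higher. The same rule called 1.51% of 12832 genes lower and 3.37% higher. A 1.5-fold rule also called Hspb6 alone, against 4.35% of all genes lower and 6.56% higher. Counting intervals alone excluded a ratio of 1 for 2 members above it (Cryab and Hspb7) and 2 below it (Hspb6 and Hspb8). The shares of all genes were 16.3% above and 17.3% below. These intervals narrow with depth, and each of the members just named had a mean CPM of at least 100. Of the 950 genes at that depth, 65.8% had an interval that excluded 1 in either direction. The median log2 ratio of the members was 0.01, beside -0.00 over all genes tested, and 4 of the 7 ratios lay above 1 and 3 below it.

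**Figure D1:**
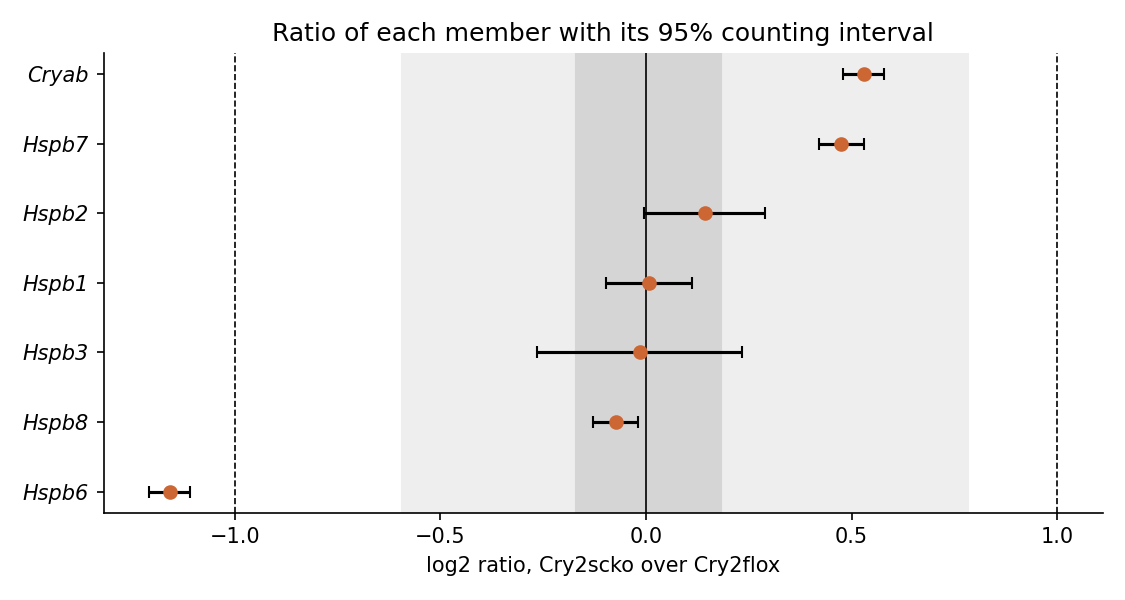
Log2 ratio of Cry2scko over Cry2flox (horizontal axis) for each member (vertical axis), with bars for the exact 95% counting interval. Dark and light grey bands hold the middle 50% and 90% of all genes tested, and dashed lines mark 2-fold; Hspb6 at -1.16 lies outside both bands and Cryab at 0.53 and Hspb7 at 0.48 lie in the light band.

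The members lie on 5 chromosomes of GRCm38. Hspb1 (ENSMUSG00000004951, plus strand) and Hspb8 (ENSMUSG00000041548, minus strand) are on chromosome 5, at 135887919 to 135889563 and at 116408491 to 116422864. Hspb7 (ENSMUSG00000006221, plus strand) is on chromosome 4 at 141420779 to 141425311, Hspb6 (ENSMUSG00000036854, plus strand) on chromosome 7 at 30552178 to 30555443, and Hspb3 (ENSMUSG00000051456, minus strand) on chromosome 13 at 113662896 to 113663676. Hspb2 (ENSMUSG00000038086, minus strand, 50751078 to 50752354) and Cryab (ENSMUSG00000032060, plus strand, 50751325 to 50756636) form a divergent pair on chromosome 9. The protein-coding transcript Cryab-201 starts 553 bases from the start of Hspb2, on the opposite strand. The annotated transcripts Cryab-206 and Cryab-202 start inside Hspb2, and the 2 genes share 252 exon bases.

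Windows of 250 bases upstream of a RefSeq transcription start (build GRCm38.p6) were matched by symbol for 5 of the 7 members, 6 windows in all. Cryab and Hspb2 had no window, so the motif search does not cover them. Those shown belong to the member that was lowest in Cry2scko (Hspb6, the one of its 2 windows nearest the start of its protein-coding transcript), a member that was higher (Hspb7), and members that were close to equal (Hspb1 and Hspb8). They are printed 5′ to 3′ on the strand of the gene. Capitals mark GAANNTTC, an inverted pair of the units that make up heat shock elements, and TATAAA, the TATA box. The Hspb6 window is chr7:30553051-30553300 and the Hspb7 window is chr4:141420529-141420778. In the gene annotation used here, the protein-coding transcript Hspb6-201 starts at 30553268, inside the Hspb6 window. By that annotation the marked TATAAA of Hspb6 lies within the transcript, not upstream of it. The Hspb1 window is chr5:135887669-135887918 and the Hspb8 window, on the minus strand, is chr5:116422865-116423114.
Hspb6: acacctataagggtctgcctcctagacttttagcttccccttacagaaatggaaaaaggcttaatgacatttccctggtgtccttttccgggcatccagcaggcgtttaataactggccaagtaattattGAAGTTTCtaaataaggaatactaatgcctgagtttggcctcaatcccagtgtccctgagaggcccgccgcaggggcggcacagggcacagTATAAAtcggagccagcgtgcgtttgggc
Hspb7: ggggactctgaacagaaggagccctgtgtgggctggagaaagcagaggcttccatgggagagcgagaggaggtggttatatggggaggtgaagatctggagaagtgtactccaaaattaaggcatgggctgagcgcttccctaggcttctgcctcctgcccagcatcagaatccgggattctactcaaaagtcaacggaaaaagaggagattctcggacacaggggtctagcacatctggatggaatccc
Hspb1: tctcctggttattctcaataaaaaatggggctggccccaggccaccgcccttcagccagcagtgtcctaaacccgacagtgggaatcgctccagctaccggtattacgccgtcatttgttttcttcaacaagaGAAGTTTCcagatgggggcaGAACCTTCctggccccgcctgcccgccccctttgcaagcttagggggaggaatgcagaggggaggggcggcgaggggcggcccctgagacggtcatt
Hspb8: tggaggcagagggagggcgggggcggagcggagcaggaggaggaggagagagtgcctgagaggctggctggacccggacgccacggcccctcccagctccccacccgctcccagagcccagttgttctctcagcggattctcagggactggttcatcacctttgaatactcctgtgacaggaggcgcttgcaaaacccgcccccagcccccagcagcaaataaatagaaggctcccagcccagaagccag

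GAANNTTC occurred in 3 of the 6 windows, those of Hspb1, Hspb3 and the Hspb6 window shown, against 6.69% of 32851 upstream windows of the same length in the RefSeq table. Hspb1 held it at 2 places, starting 117 and 97 bases before the start site (positions -117 and -97), and Hspb6 at -120. The other arrangement, TTCNNGAA (7.17% of all windows), and the E-box CACGTG that CLOCK and BMAL1 bind (6.02%) were in none of the 6. TATAAA (12.4% of all windows) was in the windows of Hspb6 and Hspb3, and in Hspb3 it overlapped a MEF2 site, a motif that 2.92% of all windows hold. The CArG box, held by 1.47% of all windows, was in none of the 6. Each motif was searched on both strands. The windows of Hspb7, which was higher in Cry2scko, and Hspb8, which was close to equal, held none of the motifs in these 250 bases, and GAANNTTC was held by Hspb6, which was lower, and by Hspb1, which was close to equal.

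Hspb6 encodes Hsp20, a small heat shock protein of striated and smooth muscle that is phosphorylated by cyclic nucleotide-dependent kinases and is known for its part in relaxation. The counts were 11387 reads (606 CPM) in Cry2flox and 4493 reads (272 CPM) in Cry2scko. This is 2.23-fold lower in Cry2scko, a log2 ratio of -1.16 (-1.21 to -1.11). Hspb6 was the best counted member in Cry2flox, and few genes of its abundance were as low. Among all 12832 genes tested, 130 had a lower ratio than Hspb6. Among the 950 genes at a mean CPM of at least 100, a limit set after seeing the data, 1 had a lower ratio than Hspb6. The 2-fold rule called 0.421% of these 950 genes lower. Genes that overlap its exons on the other strand had few reads, 65 and 73 for Proser3 and 61 and 55 for Lin37 in Cry2flox and Cry2scko. Both counts are far below those of Hspb6 in either library.

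Cryab encodes alpha-B crystallin, the family member that binds desmin and titin and whose variants cause desmin-related myopathy. It had 5808 reads (309 CPM) in Cry2flox and 7387 reads (447 CPM) in Cry2scko. The ratio was 1.44-fold higher in Cry2scko, a log2 ratio of 0.53 (0.48 to 0.58), which is beyond counting error and short of both fold rules. Among all 12832 genes, 1116 had a higher ratio, and among the 950 abundant genes 25 did. The genes nearest to Cryab in mean log2 CPM and log2 ratio over the 2 libraries were Asb2 (log2 ratio 0.51, distance 0.058), Bsg (0.47, distance 0.108) and Fabp3 (0.44, distance 0.189). Asb2 encodes a subunit of a ubiquitin ligase, Bsg the glycoprotein basigin and Fabp3 the fatty acid binding protein of heart and muscle.

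Hspb2, which encodes a binding partner of the myotonic dystrophy kinase DMPK, shares the divergent locus with Cryab. It had 764 reads (40.7 CPM) in Cry2flox and 743 (44.9 CPM) in Cry2scko, which gives a log2 ratio of 0.14 (-0.00 to 0.29), so a difference was not detectable at this depth. The log2 ratio of Hspb2 was below that of Cryab by a difference of -0.39 (-0.54 to -0.23), by an exact conditional interval on the odds ratio of their reads. The strand setting of the counting is not stated, and reads in the 252 shared bases cannot be assigned to one gene of the pair.

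Hspb3 encodes the partner that forms a complex with HSPB2 in differentiated muscle. It was the least counted member, with 289 reads (15.4 CPM) in Cry2flox and 252 (15.2 CPM) in Cry2scko. Its log2 ratio of -0.01 (-0.26 to 0.23) leaves a change of up to that size undetectable at this depth. The log2 ratios of Hspb2 and Hspb3 differed by 0.16 (-0.13 to 0.45), an interval that includes 0.

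Hspb7, the cardiovascular small heat shock protein, binds filamin C and is made almost only in heart and skeletal muscle. It had 4761 reads (254 CPM) in Cry2flox and 5830 (352 CPM) in Cry2scko, 1.39-fold higher at a log2 ratio of 0.48 (0.42 to 0.53). Its ratio was close to that of Cryab, with a difference of -0.05 (-0.13 to 0.02). Among the 950 abundant genes, 29 had a higher ratio than Hspb7.

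Hspb8 works with the co-chaperone BAG3 to pass damaged filament proteins to autophagy. It had 6146 reads (327 CPM) in Cry2flox and 5143 (311 CPM) in Cry2scko, which gives a log2 ratio of -0.07 (-0.13 to -0.02). That interval excludes a ratio of 1, but so did the interval of 65.8% of the 950 abundant genes. The log2 ratios of Hspb6 and Hspb8 differed by -1.08 (-1.16 to -1.01), Hspb6 being the lower.

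Hspb1 encodes Hsp25, the mouse counterpart of human HSP27, which guards actin filaments and is phosphorylated downstream of p38 kinases. It had 1600 reads (85.2 CPM) in Cry2flox and 1417 (85.7 CPM) in Cry2scko, which gives a log2 ratio of 0.01 (-0.10 to 0.11). A near-identical copy, Hsp25-ps1, matched Hspb1 at 99.4% over 630 bases and had 481 and 378 reads, so reads can be split between them. With Hsp25-ps1 and a second copy, Gm9817, added, the log2 ratio was -0.03 (-0.12 to 0.06). Of the 21 pairs of members, 15 had log2 ratios that differed beyond counting error, among them every pair with Hspb6, and 6 did not. The share over pairs of other genes was not computed. Such intervals narrow with read depth, so this count is not a result about the family.

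**Figure D2:**
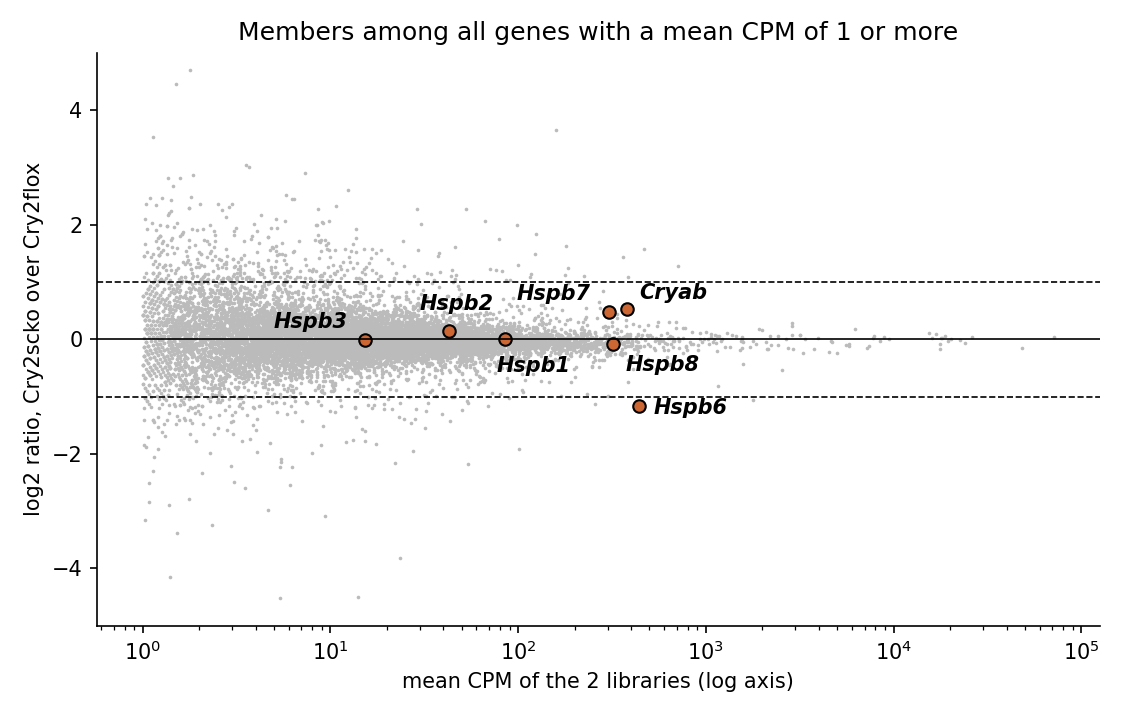
Log2 ratio of Cry2scko over Cry2flox against the mean CPM of the 2 libraries (log axis), with each grey point a gene tested, orange points the 7 members and dashed lines at 2-fold; 5 genes lie outside the vertical axis. Hspb6, at a log2 ratio of -1.16, stands below the narrow band of genes of its abundance.

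Levels can be compared between genes only per length, and the deposited FPKM, which is scaled to gene length and library size, gives such a scale. Cryab had the highest FPKM in both libraries, 259 in Cry2flox and 379.6 in Cry2scko, placing it 88th and 71st among all genes. In Cry2flox, Hspb6 (130.3 FPKM) and Hspb8 (129.96 FPKM) followed, with overlapping counting intervals, then Hspb7 at 90.9 FPKM. In Cry2scko the order after Cryab was Hspb7 (128.2 FPKM), Hspb8 (125.2 FPKM) and Hspb6 (59.2 FPKM), and the intervals of Hspb7 and Hspb8 overlapped. Among all genes Hspb6 was at rank 163 in Cry2flox and at rank 394 in Cry2scko. On the FPKM scale the other 3 members were lower in both libraries. Hspb2 was at 48.1 and 53.9 FPKM, Hspb1 at 46.2 and 47.1 FPKM and Hspb3 at 19.6 FPKM in both. In Cry2scko the counting intervals of Hspb2 (50.1 to 57.9 FPKM) and Hspb6 (57.5 to 60.9 FPKM) overlapped.

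**Figure D3:**
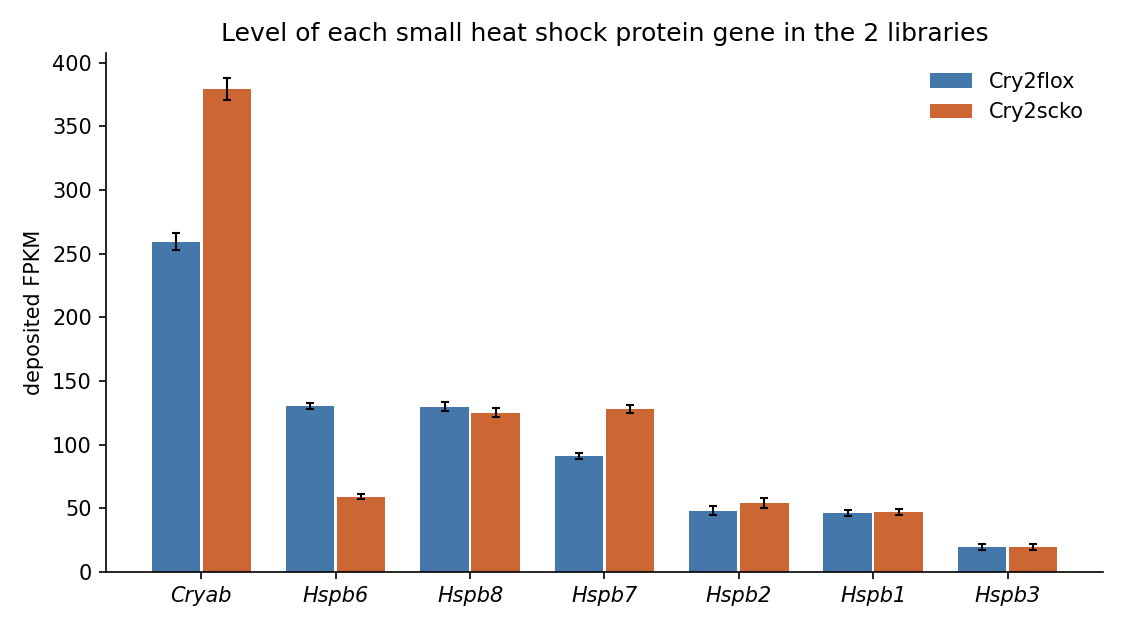
Deposited FPKM (vertical axis) of each member (horizontal axis) in Cry2flox (blue) and Cry2scko (orange), with bars for the exact Poisson 95% counting interval. Cryab is at 259 and 379.6 FPKM and Hspb6 at 130.3 and 59.2 FPKM in Cry2flox and Cry2scko.

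The order of levels rests on the gene lengths behind the FPKM. Counts and FPKM together give the length the authors used, which was 4622 bases for Hspb6, longer than the 3266 bases that the gene spans in the annotation used here. For Hspb1 it was 1833 bases, the sum of its annotated transcripts (903 and 930 bases) rather than their merged 1031 bases. For Hspb3 and Hspb7, with 1 transcript each, it was the length of that transcript, 781 and 2769 bases. No one account of the lengths covered all members. For Cryab the length was 1185 bases, below its merged 1479 bases and far below its summed transcripts of 4989 bases, and for Hspb2 it was 840 bases against 834 merged and 1325 summed. A length above the merged exons lowers the FPKM of a gene against other genes and a shorter one raises it, while the ratio between libraries is untouched. On CPM per kilobase of merged exon, Hspb6 was the highest member in Cry2flox, at 264 against 209 for Cryab and 168 for Hspb8. In Cry2scko, Cryab was the highest on that scale too, at 302 against 159 for Hspb8, 127 for Hspb7 and 118 for Hspb6. Hspb1 stood above Hspb2 on that scale in both libraries, at 82.6 and 83.1 against 48.8 and 53.9, the reverse of their FPKM order.

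The make-up of the family differed between the libraries, with a smaller Hspb6 share and a larger Cryab share in Cry2scko on both scales. Cryab was 35.8% of the summed FPKM of the members in Cry2flox and 46.7% in Cry2scko, and Hspb6 was 18.0% and 7.28%. Hspb7 took 12.6% and 15.8%, and Hspb8 17.9% and 15.4%. On CPM per kilobase of merged exon, Cryab was 23.7% and 35.0% and Hspb6 29.9% and 13.7%. The summed FPKM was 724 in Cry2flox and 813 in Cry2scko, a ratio of 1.12. The summed CPM per kilobase of merged exon had a ratio of 0.977, and of 0.991 with total-count scaling, where the length alone differs from the FPKM. The direction of the total thus depended on the length used. The FPKM of Cryab was 1.99 times that of Hspb6 in Cry2flox and 6.41 times in Cry2scko.

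**Figure D4:**
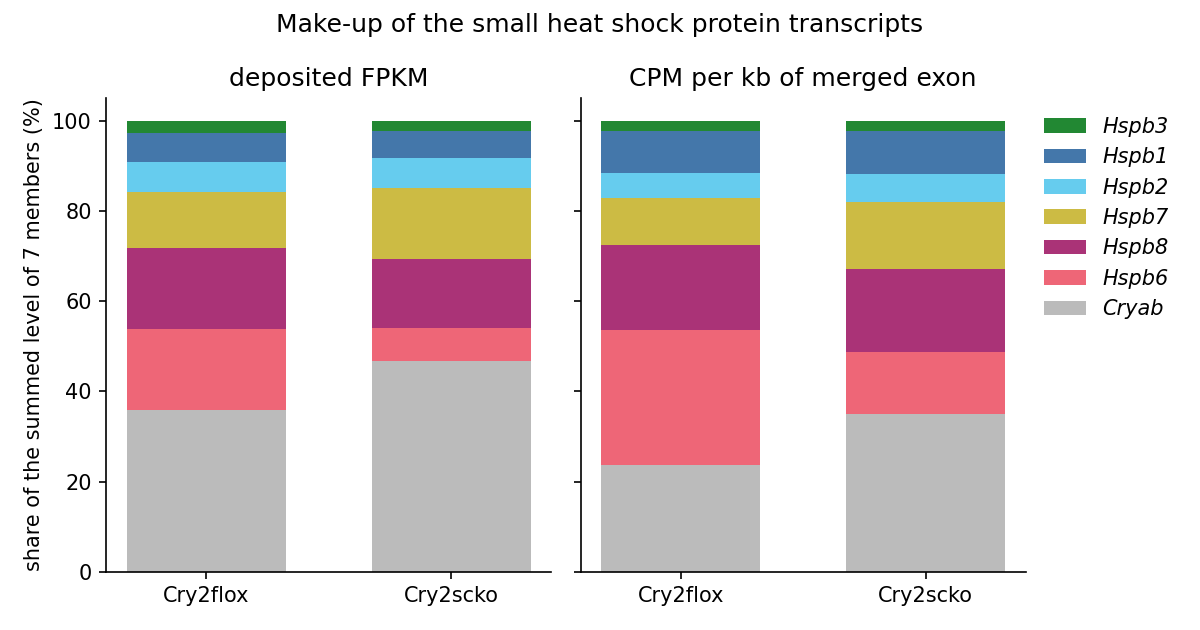
Share (%) of the summed level of the 7 members taken by each member in the 2 libraries (horizontal axis), from deposited FPKM (left) and from CPM per kilobase of merged exon (right). The Hspb6 share is smaller in Cry2scko on both scales (7.28% and 13.7%) and the Cryab share is larger (46.7% and 35.0%).

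Partners of the family in chaperone-assisted selective autophagy lay within 2-fold with 1 exception. Of 8 genes measured, 1 was higher, 0 were lower and 7 neither, with a median log2 ratio of -0.01. The 2-fold rule called 3.37% of all genes tested higher and 1.51% lower. The higher gene, Synpo2, encodes the protein that links the BAG3 complex to autophagosome membranes and had 441 and 4894 reads, a log2 ratio of 3.65 (3.51 to 3.80). Bag3, the partner of Hspb8, had 2169 and 1929 reads and a log2 ratio of 0.01 (-0.08 to 0.10). The ubiquitin ligase Stub1 was at 0.01 (-0.10 to 0.13). The autophagy receptor Sqstm1 at -0.24 (-0.29 to -0.19) and the J-domain protein Dnajb2 at -0.33 (-0.47 to -0.19) were lower beyond counting error. Hspa8 was higher beyond it, at 0.20 (0.16 to 0.23). Intervals alone excluded a ratio of 1 for 16.3% of all genes above it and 17.3% below it. Among the 950 genes at a mean CPM of at least 100, which include Sqstm1 and Hspa8, the share was 65.8% in either direction. Hspb8 and its partner Bag3 were thus both close to equal in libraries where Synpo2 was far apart.

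Filament and Z-disc proteins that small heat shock proteins bind had 0 of 9 measured past the 2-fold rule and a median of -0.01. Desmin (Des), the intermediate filament bound by Cryab, was at 0.06 (0.04 to 0.08), and titin (Ttn) at -0.11 (-0.12 to -0.09). The highest ratio of the list was that of vimentin (Vim), an intermediate filament of non-muscle cells and immature fibres, at 0.28 (0.18 to 0.39). Filamin C (Flnc), bound by Hspb7, was at -0.04 (-0.08 to 0.01), and Dmpk, bound by Hspb2, at -0.01 (-0.08 to 0.05). No gene of the list had a ratio as high as those of Cryab and Hspb7 or as low as that of Hspb6.

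Inducible chaperones, mostly genes that heat shock factor 1 raises under stress as it does Hspb1 and Cryab, had 0 of 18 measured past the rule and a median of 0.05. Their ratios ran from -0.15 for Serpinh1, the collagen chaperone, to 0.41 (0.09 to 0.73) for Hspa1a, an inducible HSP70. Hspa8, the constitutive HSP70, was at 0.20 (0.16 to 0.23), and Dnajb1, its J-domain partner, at 0.17 (-0.09 to 0.43). Of the heat shock factors, Hsf1 was at -0.06 (-0.25 to 0.12), Hsf2 at -0.17 (-0.37 to 0.02) and Hsf4 at 0.13 (-0.33 to 0.59), and 0 of 3 passed the rule. No gene of either list was 2-fold lower, as Hspb6 was.

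Kinases that phosphorylate small heat shock proteins, or that act above those that do, included 2 higher genes among 9 measured, with 0 lower, 7 neither and a median of 0.04. Over all genes tested, the 2-fold rule called 3.37% higher and 1.51% lower. Mapk14, which encodes p38 alpha, had 862 and 1756 reads and a log2 ratio of 1.21 (1.09 to 1.33). Mapkapk5 had 222 and 422 reads and a log2 ratio of 1.11 (0.87 to 1.35), while Mapk11, which encodes p38 beta, passed the 1.5-fold rule alone, at 0.93 (0.44 to 1.43) on 56 and 94 reads. Mapkapk2, the main kinase of Hspb1, was at 0.08 (0.02 to 0.15). Of the kinases of Hspb6, the protein kinase A subunit Prkaca was at -0.08 (-0.18 to 0.01) and the cyclic GMP-dependent kinase Prkg1 at -0.39 (-0.61 to -0.17). RNA levels do not measure phosphorylation.

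**Figure D5:**
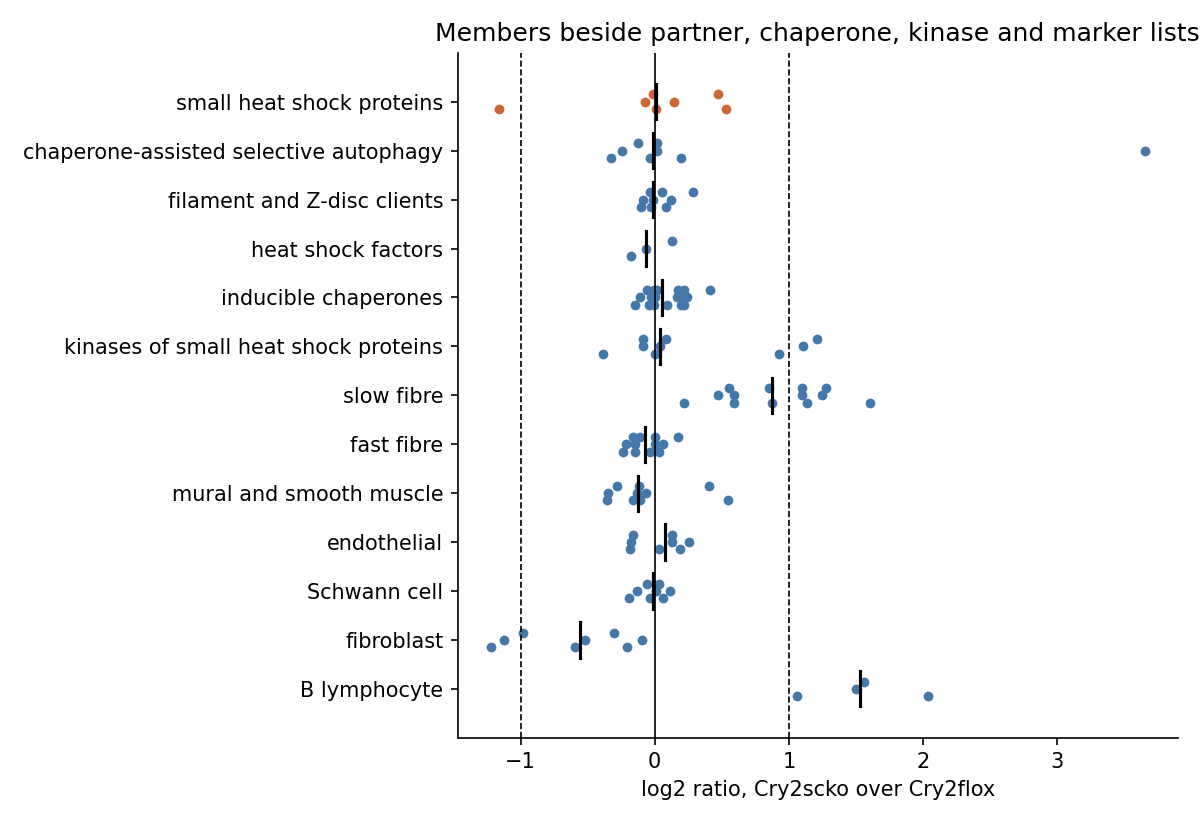
Log2 ratio of Cry2scko over Cry2flox (horizontal axis) of every gene tested in each list drawn (vertical axis). Members are in orange, black bars mark list medians and dashed lines 2-fold. The lists of skeletal muscle markers and of the remaining small heat shock proteins are not drawn. The slow fibre list (median 0.87) and the B lymphocyte list (median 1.53) sit to the right and the fibroblast list to the left (median -0.55). The members spread to both sides of 0.

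Several cell types make small heat shock proteins, and some of their markers moved between the libraries. The counts below stand beside 3.37% of all genes tested called higher by the 2-fold rule and 1.51% called lower. Slow fibre markers had 6 of 13 genes past the rule, all higher, a median of 0.87, and a summed level of 445 FPKM in Cry2flox and 832 FPKM in Cry2scko. Fast fibre markers had 0 of 12 past it and a median of -0.07. The slow fibre markers moved in the direction of Cryab and Hspb7 and against that of Hspb6, and their part in these results was not tested. Mural and smooth muscle markers, from cells that also make Hspb6, had 0 of 10 past the rule, a median of -0.12 and a summed level of 213 and 194 FPKM. Endothelial markers had 0 of 8 and a median of 0.08, and Schwann cell markers 0 of 8 and a median of -0.01. Fibroblast markers had 2 of 8 past the rule, both lower, with a median of -0.55 and a summed level of 313 and 235 FPKM. B lymphocyte markers had 4 of 4 higher, with a median of 1.53 and a summed level of 10.8 and 31.7 FPKM. The part of fibroblasts and B lymphocytes in the member ratios was not tested.

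Of the remaining family members, 3 of 4 were at or near the detection limit. Cryaa, the lens alpha crystallin, had 1 and 2 reads, and Hspb9 and Odf1, both known from testis, had 0 reads in both libraries. With a floor of 3 reads, a gene with 0 reads lies under 0.160 CPM in the Cry2flox library and under 0.181 CPM in that of Cry2scko. Hspb11, a ciliary transport gene that carries the family name, had 80 and 60 reads and a log2 ratio of -0.23 (-0.74 to 0.27). Of 24 neighbouring protein-coding genes, up to 2 on each side of each member, 17 reached a mean CPM of 1, and 0 of these passed the 2-fold rule. Their log2 ratios included 0.73 (-0.10 to 1.62) for Arhgap33, beside Hspb6, and -0.49 (-0.89 to -0.10) for Arl15, beside Hspb3.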

How the data were processed

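RNA-seq of mouse gastrocnemius was used, 1 library per genotype. The authors deposited whole-number read counts per Ensembl gene, not normalised, and 1 file of FPKM values per library, per the file headers. CASAVA, HISAT2 2.0.4, StringTie 1.3.0 and GRCm38 are named in the submitters' processing notes. The read counter, annotation release and strand setting are not given in the sources used here. In 16284 genes with reads in both libraries, counts and FPKM implied the same gene length within 0.1 percent for 100% of genes.

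The members and lists were chosen with earlier results of these data known. Names came from GENCODE M21 (GRCm38), which named 34344 of 34745 identifiers. Counts were scaled with TMM (edgeR 4.0.16, R 4.3.3), with factors of 0.993 for Cry2flox and 1.01 for Cry2scko. Log2 ratios used 0.5 added reads, with exact Clopper-Pearson 95% intervals. With 1 library per genotype no p-value was computed. Cry2, the members and the lists were named, and for Cryab the 3 nearest genes. Copies were sought with BLAST 2.17.0. Python 3.11.15, numpy 2.4.6, scipy 1.17.1, pandas 2.3.3 and matplotlib 3.10.9 were used. The calls were run on simulated counts with known fold changes and counting error alone. That simulation cannot show how the calls behave with variation between animals. Alternatives were total-count and DESeq2 1.42.0 scaling, total counts without mitochondrial and the 20 most abundant genes, FPKM with 0.1 added, 5 reads added, and other filters (none, or a mean CPM of 5 or more).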

Additional observations from a re-analysis of the deposited data

How the results depend on the processing

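Hspb6 stayed past the 2-fold rule under the 7 alternatives run, and no other member passed the 2-fold or the 1.5-fold rule under any of them. Over the 5 scaling, unit and added-read alternatives, the log2 ratio of Hspb6 ran from -1.17 to -1.13, that of Cryab from 0.52 to 0.56 and that of Hspb7 from 0.47 to 0.50, and each member stayed within its counting interval. Only Hspb3 changed sign, between -0.02 and 0.01. The ratio of the summed levels was 1.12 with FPKM, 0.977 with TMM-scaled CPM per kilobase of merged exon, which changes scaling and length together, and 0.991 with the length alone changed, an alternative added after seeing the data. Alternatives for the count over all genes, the set of genes at a mean CPM of at least 100 and the sum of Hspb1 with its copies were chosen after seeing the data. Without a filter 789 genes were higher and 396 lower, in place of 432 and 194, because more genes enter, and a minimum mean CPM of 5 gave 175 and 76, because fewer do. With FPKM and 0.1 added, 116 genes were lower. No paired analysis was possible because each genotype has 1 library. For the same reason no library could be left out, and variation between animals was not measured. Depth limits Hspb3 and Hspb2 most.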
